A study of Homo sapiens with 6 samples.

Results

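Promoter-proximal pausing and its release depend on a small set of factors that act on RNA polymerase II. The negative elongation factor (NELF) and the DRB sensitivity-inducing factor (DSIF) hold the polymerase soon after initiation, and the kinase P-TEFb (CDK9 with cyclin T) phosphorylates both, which frees the polymerase. The 7SK particle keeps P-TEFb inactive, the super elongation complex delivers it, and Integrator cleaves nascent RNA and ends transcription early. A list of 50 genes that encode these factors, the PAF complex, polymerase II subunits, histone chaperones and termination or cap-binding proteins is described here, out of 58735 genes in the deposited count table. The list was set by gene name, and all 50 names were found, in 10 subgroups of 1 to 12 tested genes. After the low-count filter 49 of the 50 were tested among 14844 genes. The gene left out was SUPT4H1, the small subunit of DSIF.

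The libraries came from Mum-2b cells, which the labels call a uveal melanoma line. There were 3 control libraries, of wild-type genotype and titled NC, and 3 libraries in which NELFCD, a NELF subunit, was knocked down by a short hairpin RNA (shRNA). The 3 knockdown libraries share 1 hairpin by their titles, and its action on NELFCD and on other transcripts cannot be told apart. RNA was extracted with either of a pair of reagents, and the labels do not tie a reagent to a library. The labels do not say whether replicates were separate cultures, so p-values measure only the spread between these libraries, which may be technical. In bulk RNA a change in every cell and a change in some of the cells cannot be told apart. Depth was 14306733 to 16656630 counts per library. Of 8 melanocyte markers 5 were under 1 CPM (counts scaled to library size) in every library (TYR, DCT, PMEL, SOX10 and S100B). TYR had 0 counts in 5 of 6 libraries. The remaining ones were MITF at 2.67 to 5.38 CPM, TYRP1 at 3.02 to 9.17 and MLANA at 0.64 to 2.39. The summed level of the melanocyte markers was 7.50 to 10.8 CPM in controls and 7.61 to 18.3 in knockdowns. All 4 fibroblast and all 4 blood markers were under 1 CPM in every library. The endothelial markers summed to 125 to 165 CPM in controls and 53.8 to 58.0 in knockdowns, almost all from CDH5, and the epithelial ones to 47.2 to 59.8 and 15.6 to 25.1, almost all from CLDN4. The part of such markers in the results was not tested. On the first principal component, with 68.8% of the variance, each group's replicate 1 was separate from its other libraries.

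Of the 49 tested genes 8 passed an adjusted p of 0.05 in edgeR when the replicate number was a term in the model (the block), 2 higher and 6 lower in the knockdown. SUPT5H, the large subunit of DSIF, and CTR9, a PAF subunit, rose. The target NELFCD, the polymerase subunit POLR2A and the polymerase-associated gene POLR2M, the super elongation genes ELL2 and EAF1 and the Integrator subunit INTS6 fell. This is 16.3% of the tested members against a background of 13.5% of all genes tested (5.48% higher and 8.01% lower), and 7 of 48 (14.6%) without the target, so the share called was close to that of all genes. In edgeR's quasi-likelihood test without the replicate number 0 of the 49 passed (background 0%), with 3 at an unadjusted p under 0.05 (background 6.43%). Without that term DESeq2 called NELFCD alone (background 1.08%) and limma-voom 0. In replicates 2 and 3 alone 15 of 49 passed, where 25.3% of all genes did, or 16 with the block kept (27.6%). Without pair 2 the blocked fit called 4 members (background 6.09%), and without pair 3 it called 7 (background 11.6%). Blocked DESeq2 called 6 (background 9.15%) and blocked limma-voom 8 (background 14.3%). Blocked edgeR called 8 with relative log expression scaling (background 13.7%), 10 with upper-quartile scaling (background 14.7%) and 8 of 48 with a mean of at least 5 CPM (background 16.8%). With no low-count filter it called 12 of 50. The background there, 9% of 32102 genes, includes the low-count genes that the filter drops, so these shares are of unlike gene sets. Counts of fits given below for single genes are over these 11 fits, the 10 with the block and the fit of replicates 2 and 3 alone. In the 13 others, none with the block, NELFCD passed in 1 and the genes so counted in 0. The median log2 fold change over the members was -0.022, beside 0.0001 over all genes tested, and moved to 0.025 with upper-quartile scaling, which shifted the median of all genes to 0.048. The median size of a change, regardless of sign, was 0.12 for the members and 0.18 for all genes. The members were not matched to all genes in level or precision. Their median control FPKM (fragments scaled to gene length and library size) was 12.5, beside 4.58. Their median blocked SE was 0.071, beside 0.109. The part of these differences in the sizes of change and the shares called was not tested.

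In the blocked edgeR fit 41 members did not pass. Of these, 39 had a 95% interval of the log2 fold change that lay wholly between -0.5 and 0.5 in that fit. The exceptions were HEXIM1 and HEXIM2. Of these 41, 10 had an unadjusted p under 0.05 with the block (for all members 36.7%, background 30.5%). Without the block some intervals went well past these bounds, such as -0.89 to 0.93 for SUPT16H and -0.75 to 1.11 for NCBP1. Others stayed within them, such as -0.21 to 0.34 for CCNT2. The planned fit thus does not bound the change of every such member. The CPM of the groups did not overlap in 11 members, 4 higher and 7 lower, which is 22.4% against a background of 14.9% (7.52% higher and 7.38% lower). NELFCD was the only tested member with an estimate past 2-fold.

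**Figure D1:**
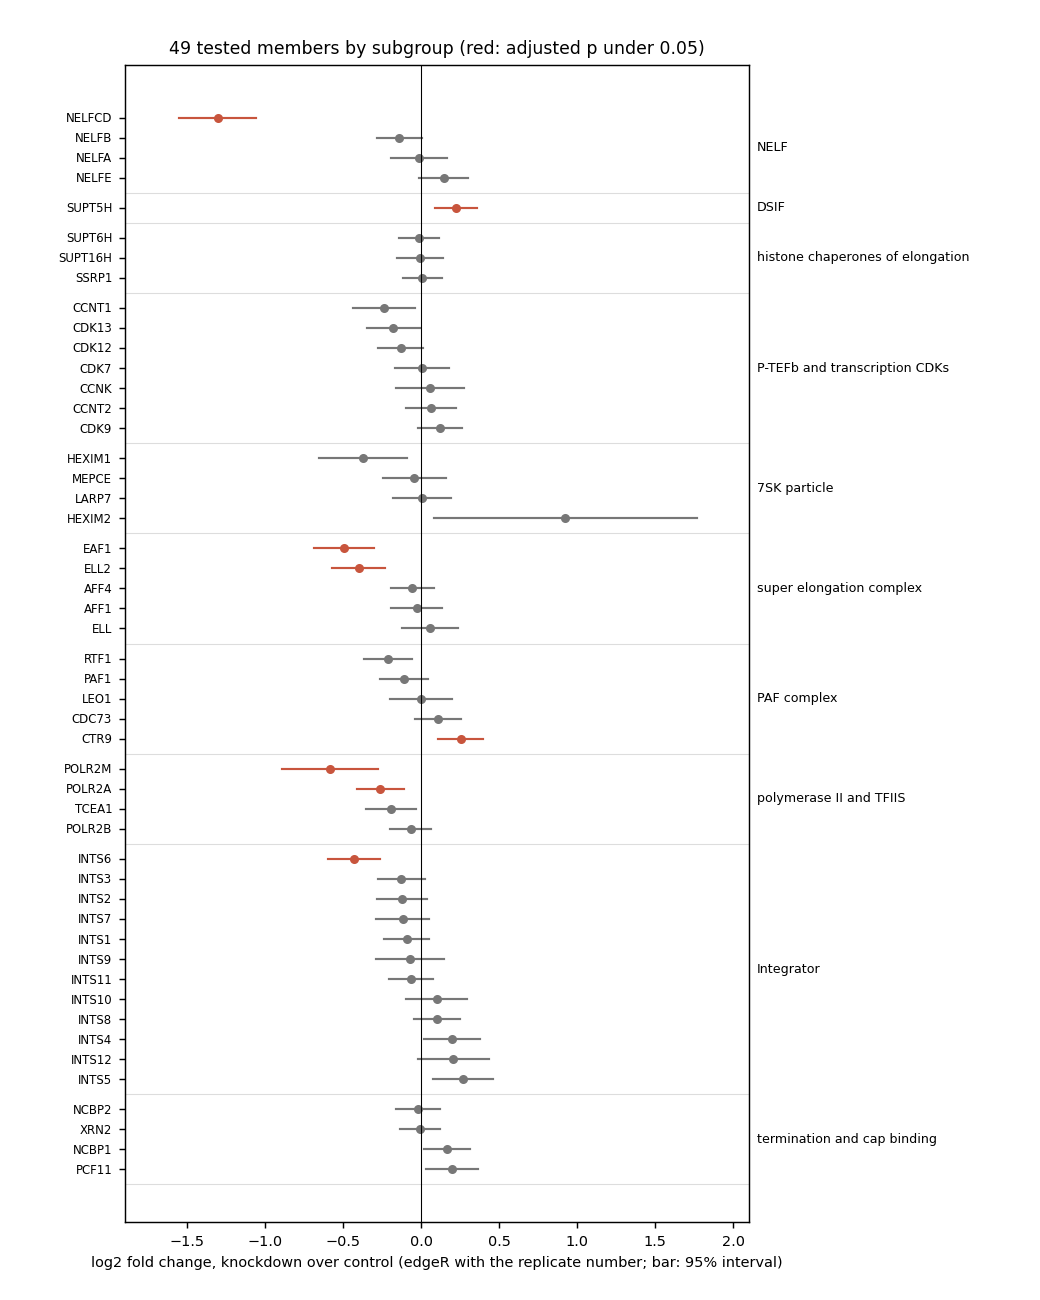
Log2 fold change of each tested member, knockdown over control, from edgeR with the replicate number in the model (x axis), by subgroup (y axis). Points are estimates, bars are 95% intervals, and red marks an adjusted p under 0.05; NELFCD lies lowest at -1.30 and the 8 red genes are spread over 6 of the 10 subgroups.

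NELF holds paused polymerase as a complex of 4 subunits, and its mRNAs differed in level per gene length in controls. Mean FPKM (fragments scaled to gene length and library size, as deposited) in controls was 59.7 for NELFB, which joins the other subunits, 18.3 for NELFE, which carries the RNA-binding domain, 12.5 for NELFCD and 7.66 for NELFA, which contacts the polymerase. NELFCD made up 11.3%, 14.04% and 12.9% of the summed FPKM of the 4 genes in control replicates 1 to 3. In knockdown replicates 1 to 3 it made up 4.25%, 6.62% and 6.72%. Every knockdown library lay below every control library in that share, and NELFCD went from the third to the lowest of the 4 mRNAs by mean FPKM. The order depends on the gene length used, which was 6298 bases for NELFCD and 2698 for NELFB. By mean CPM NELFCD (79.1) lay above NELFE (49.8) and NELFA (45.7) in controls. It was also the lowest of the 4 by mean CPM in knockdowns (32.8).

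Values by library follow the replicate numbers. NELFCD (chromosome 20, 58981208 to 58995133, hg38) had 65.5, 88.3 and 83.5 CPM in the controls (replicates 1, 2 and 3) against 20.7, 37.4 and 40.3 CPM in the knockdowns. The groups did not overlap, and knockdown replicate 1 was the lowest library. The log2 fold change was -1.30 ± 0.109 (SE) in edgeR's fit with the replicate number (adjusted p = 0.00046), and adjusted p = 0.53 without it. An exact two-sided permutation test of the mean CPM gave p = 0.1, the smallest that 3 against 3 libraries allow.

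NELFA, NELFB and NELFE passed in neither fit. NELFB had 152, 163 and 168 CPM in the controls against 128, 149.7 and 163 CPM in the knockdowns. Its blocked estimate was -0.14 (95% interval -0.29 to 0.0040), with overlapping groups and the knockdown lower in all 3 pairs of equal replicate number. NELFE had 45.7, 49.5 and 54.1 CPM in the controls against 50.6, 56.8 and 57.4 CPM in the knockdowns. It was higher in all 3 pairs, at 0.14 (95% interval -0.013 to 0.30), and its groups overlapped. NELFA had 52.2, 42.5 and 42.3 CPM in the controls against 46.5, 44.8 and 43.8 CPM in the knockdowns. Its estimate of -0.015 had an interval of -0.20 to 0.17, and its sign changed with the scaling, to 0.032 with upper-quartile factors. The plot of CPM by library shows these 4 genes beside the other members that passed.

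**Figure D2:**
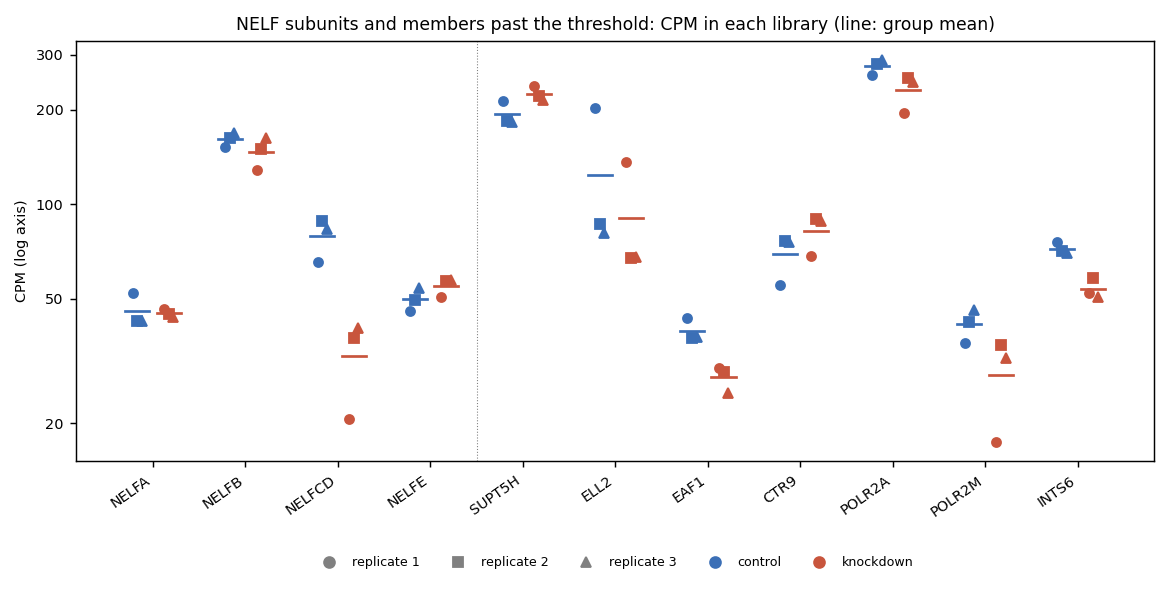
CPM (log axis) in each library for the NELF subunits (left of the dotted line) and the 7 other members that passed with the replicate number in the model. Blue is control and red is knockdown, symbols give the replicate and short lines the group mean; the groups separate for NELFCD, SUPT5H, EAF1, POLR2A, POLR2M and INTS6, and overlap for ELL2 and CTR9.

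Sequences upstream of a RefSeq start of NELFCD and of 3 other members that passed are shown here. The strands are those of the genes, 5′ to 3′, from RefSeq on GRCh38.p14, limited to bases that no annotated exon covers, and capitals mark the GC box GGGCGG or its reverse complement CCGCCC. NELFCD is at chr20:58981170-58981207 (+), POLR2A at chr17:7484266-7484365 (+), INTS6 at chr13:51453208-51453286 (-) and SUPT5H at chr19:39445341-39445440 (+). They begin 86, 100, 250 and 241 bases before the start, in that order. Of the other members that passed, ELL2 had no promoter entry. For CTR9, EAF1 and POLR2M the nearest exon-free stretch in the 250 bases before the first listed start was absent or under 30 bases. The INTS6 and SUPT5H stretches lie inside the annotated genes (51354077 to 51454264 and 39436156 to 39476670), so their RefSeq starts are internal ones.
NELFCD: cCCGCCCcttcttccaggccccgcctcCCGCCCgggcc
POLR2A: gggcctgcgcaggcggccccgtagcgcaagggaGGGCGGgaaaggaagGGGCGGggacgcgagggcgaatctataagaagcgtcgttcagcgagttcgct
INTS6: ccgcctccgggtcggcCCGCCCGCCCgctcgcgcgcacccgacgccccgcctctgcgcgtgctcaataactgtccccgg
SUPT5H: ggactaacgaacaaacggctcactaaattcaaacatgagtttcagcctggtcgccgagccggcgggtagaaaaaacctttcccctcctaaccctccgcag
The NELFCD, POLR2A and INTS6 stretches each held 2 matches to the GC box, those of INTS6 overlapping, and the SUPT5H stretch held none of the motifs searched. For SUPT5H and INTS6 this describes an internal start, not the 5′ end of the annotated gene. Over the 250 bases before each of 52 starts of 42 members, on both strands, GGGCGG was in 71.2% of promoters, beside 42.6% of all 35116 promoters of that length. The ETS core CCGGAA was in 36.5%, beside 14.5%, and CCAAT in 32.7%, beside 32.0%. TATAAA was in 2 of 52, or 3.85%, beside 10.7%. The median GC content of these windows was 65.2% for the members and 58.0% for all promoters. Its part in the motif shares was not tested. These are letter matches and say nothing of binding.

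DSIF pairs with NELF in pausing and stays with the polymerase during elongation once phosphorylated. Its large subunit SUPT5H (chromosome 19, 39436156 to 39476670) had 213, 184 and 183 CPM in the controls against 239, 222 and 216 CPM in the knockdowns. Every knockdown library lay above every control library, though the highest control and the lowest knockdown were close. The log2 fold change was 0.22 ± 0.0582 (SE) in edgeR's blocked fit (adjusted p = 0.037), or 117% of the control mean. The call was lost in DESeq2's blocked fit and without either replicate pair 2 or 3 (largest adjusted p = 0.30), and stood in replicates 2 and 3 alone (log2 fold change 0.25, edgeR adjusted p = 1.3e-06). The small subunit SUPT4H1 was listed with 1 count in control replicate 2 and 0 in the 5 other libraries. Of its exon bases 89.9% are shared with the same-strand gene AC004687.2, which itself had 0 to 2 counts per library, so no level can be given for it.

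Histone chaperones move nucleosomes out of the way of the polymerase and back. Of SUPT6H and the FACT subunits SUPT16H and SSRP1, 0 of 3 passed with the block in edgeR (background 13.5%), and blocked DESeq2 and limma-voom called 0. None reached an unadjusted p of 0.05 in edgeR with the block (background 30.5%) or without it (background 6.43%). SUPT16H had 212, 388 and 388 CPM in the controls against 189.8, 401 and 409.9 CPM in the knockdowns. SUPT6H had 179, 221 and 223 CPM in the controls against 175, 220.5 and 222 CPM in the knockdowns. Replicate 1 of each group was low for all 3 genes, and control and knockdown of equal number lay close together. The blocked intervals were -0.14 to 0.11 for SUPT6H, -0.16 to 0.14 for SUPT16H and -0.12 to 0.13 for SSRP1. The signs of SUPT6H and SUPT16H depended on the setting, and SSRP1 lay at 0.0067.

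P-TEFb and its relatives phosphorylate the polymerase tail. CDK9, the P-TEFb kinase, had 87.6, 87.4 and 85.9 CPM in the controls against 92.8, 96.5 and 94.6 CPM in the knockdowns. Its groups did not overlap, at 109% of the control mean, but it did not pass in the blocked edgeR fit (0.12, 95% interval -0.018 to 0.26, adjusted p = 0.22) and passed in 2 of the 11 fits. CCNT1, the main cyclin partner, had 103, 91.0 and 92.3 CPM in the controls against 72.5, 86.3 and 84.0 CPM in the knockdowns. The groups did not overlap and the knockdown was lower in all 3 pairs, by 0.50, 0.076 and 0.14 on the log2 scale, and the blocked estimate of -0.24 had an adjusted p of 0.11 in edgeR (95% interval -0.44 to -0.038) and passed in 1 of the 11 fits. Its paralog CCNT2 had an estimate of 0.065 (-0.10 to 0.23). CCNT1 made up 73.3%, 69.3% and 70.8% of the summed FPKM of both cyclins in control replicates 1 to 3 and 65.2%, 67.9% and 66.8% in knockdown replicates 1 to 3. The share of CCNT1 was lower in every knockdown library than in any control library, and the difference between the paralogs was not tested.

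CDK12 and CDK13, which act with cyclin K (CCNK) later in the gene body, were lower in all 3 pairs and did not pass. CDK13 had 93.4, 82.5 and 80.7 CPM in the controls against 72.8, 76.5 and 77.0 CPM in the knockdowns. Its groups did not overlap, and the blocked estimate was -0.18 (-0.35 to -0.0076, edgeR adjusted p = 0.15). For CDK12 the estimate was -0.13 (-0.28 to 0.012), and its share of the summed FPKM of both kinases averaged 79.4% ± 3.88 in the 3 controls and 80.0% ± 3.15 in the 3 knockdowns (mean ± SD). CDK7, the kinase of the initiation factor TFIIH, lay at 0.0056 (-0.17 to 0.18). CCNK was at 0.058 (-0.16 to 0.28), and 59.5% of its exon bases lie opposite CCDC85C, a gene with 837 to 2607 counts per library, so part of its count is uncertain without a stated strand setting. In this subgroup 0 of 7 passed in blocked edgeR (background 13.5%), with 2 at an unadjusted p under 0.05 (background 30.5%). Blocked DESeq2 and limma-voom called 0.

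The 7SK particle holds P-TEFb through the inhibitors HEXIM1 and HEXIM2. HEXIM1 had 56.3, 75.0 and 71.8 CPM in the controls against 32.0, 62.5 and 67.6 CPM in the knockdowns. It was lower in all 3 pairs, by 0.81, 0.26 and 0.087 on the log2 scale, so most of the difference lay in replicate 1 and the groups overlapped. The blocked estimate was -0.37 ± 0.124 (SE) (edgeR adjusted p = 0.083, 95% interval -0.66 to -0.090), and it passed in 4 of the 11 fits. In replicates 2 and 3 alone the fall was 0.18 (edgeR adjusted p = 0.027). HEXIM2 had few counts, at 1.3, 0.64 and 1.5 CPM in the controls against 3.9, 1.5 and 1.5 CPM in the knockdowns. Knockdown replicate 1 was the highest library and the knockdown and control of replicate 3 were nearly equal. Its estimate of 0.92 had the widest interval of the members (0.081 to 1.77, edgeR adjusted p = 0.13), and 50.3% of its exon bases lie opposite another gene. HEXIM2 was tested in 10 of the 11 fits and passed in 1, the blocked fit without replicate 3 of both groups (1.40, edgeR adjusted p = 0.025). LARP7, which binds the 3′ end of the RNA, and MEPCE, which caps its 5′ end, lay at 0.0064 (-0.18 to 0.19) and -0.044 (-0.25 to 0.16). Here 0 of 4 passed in blocked edgeR (background 13.5%), with 2 at an unadjusted p under 0.05 (background 30.5%). Blocked DESeq2 and limma-voom called 0.

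The super elongation complex joins P-TEFb to ELL-type elongation factors on an AFF scaffold. Of its 5 genes 2 fell and 0 rose in blocked edgeR (background 8.01% lower and 5.48% higher). ELL2 (chromosome 5, 95885098 to 95962071) had 203, 86.6 and 81.1 CPM in the controls against 137, 67.6 and 67.8 CPM in the knockdowns. Replicate 1 was the high library in each group, above replicates 2 and 3 by 1.28 on the log2 scale in controls and 1.01 in knockdowns, and the groups overlapped. Within each replicate number the knockdown was lower, by 0.57, 0.36 and 0.26. The blocked log2 fold change was -0.40 ± 0.0751 (SE) (edgeR adjusted p = 0.012), while without the block the adjusted p was 1.0 and the estimate turned to 0.11 without control replicate 1. That last fit keeps replicate 1 in the knockdown alone, so the replicate 1 difference and the knockdown cannot be told apart in it. The blocked call was lost without pair 2 (edgeR adjusted p = 0.052). Its paralog ELL lay at 0.057 (-0.12 to 0.24), with 41.3, 44.2 and 45.0 CPM in the controls against 47.3, 45.0 and 43.5 CPM in the knockdowns. ELL2 made up 76.8%, 56.8% and 54.8% of the summed FPKM of ELL and ELL2 in control replicates 1 to 3, and 66.0%, 50.3% and 51.2% in the knockdowns.

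EAF1, a partner of the ELL proteins (chromosome 3, 15427355 to 15450635), had 43.5, 37.4 and 37.8 CPM in the controls against 30.1, 29.1 and 25.1 CPM in the knockdowns. The groups did not overlap, and 71.0% of the control mean was left. The log2 fold change was -0.49 ± 0.0847 (SE) in edgeR's blocked fit (adjusted p = 0.0087), and adjusted p = 0.59 without the block. EAF1 passed in 11 of the 11 fits and in 0 of the 13 others. Among those 13, leaving out replicate 1 of a single group gave edgeR adjusted p = 0.69 and 0.62. Of the exon bases of EAF1 40.8% lie opposite EAF1-AS1, which had 0 to 5 counts per library. The scaffolds AFF4 and AFF1 did not pass, at -0.058 (-0.20 to 0.080) and -0.028 (-0.19 to 0.14). AFF4 made up 80.0% ± 1.61 of their summed FPKM in the 3 controls and 79.6% ± 3.2 in the 3 knockdowns (mean ± SD). AFF4 was lower in the blocked fit without replicate 1 of both groups (-0.099, edgeR adjusted p = 0.027), which is 1 of the 11 fits.

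The PAF complex travels with the polymerase and recruits histone-modifying enzymes. CTR9, its scaffold subunit (chromosome 11, 10750987 to 10801625), had 55.3, 76.5 and 76.1 CPM in the controls against 68.5, 90.0 and 88.5 CPM in the knockdowns. Replicate 1 was low in both groups and the groups overlapped, while the knockdown was higher in each pair, by 0.31, 0.23 and 0.22 on the log2 scale. The blocked log2 fold change was 0.25 ± 0.0638 (SE) (edgeR adjusted p = 0.033), and the adjusted p was 1.0 without the block. The call was lost in blocked DESeq2 and without pair 2 or pair 3 (largest adjusted p = 0.18). RTF1, which couples the complex to histone H2B ubiquitylation, had 97.0, 118 and 124 CPM in the controls against 76.3, 107 and 112 CPM in the knockdowns. It lay lower in all 3 pairs but did not pass (-0.21, -0.37 to -0.059, edgeR adjusted p = 0.071), and passed in 3 of the 11 fits. The remaining subunits did not pass, with CDC73 at 0.11 (-0.041 to 0.25), PAF1 at -0.11 (-0.26 to 0.041) and LEO1 at -0.0016 (-0.20 to 0.20). Subunits of the same complex thus had estimates on either side of 0.

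All 4 genes of the polymerase and TFIIS subgroup were lower in the knockdown in all 3 pairs under TMM (the scaling used unless another is named), relative log expression and upper-quartile scaling, and 2 of the 4 passed. Over all genes 26.9% were lower in all 3 pairs, and 13.5% passed in blocked edgeR. The subgroup median was -0.23 (-0.18 with upper-quartile scaling). The 10 polymerase II subunits outside the members did not share this direction. Their median was 0.081, with 5 higher and 2 lower in all 3 pairs. POLR2A, the catalytic subunit (chromosome 17, 7484366 to 7514616), had 259, 281 and 289 CPM in the controls against 196, 253 and 246 CPM in the knockdowns. The groups did not overlap, and the knockdown mean was 83.8% of the control mean. The log2 fold change was -0.26 ± 0.0656 (SE) in edgeR's blocked fit (adjusted p = 0.032), lost without pair 2 or pair 3 (largest adjusted p = 0.11) and kept in replicates 2 and 3 alone (-0.19, adjusted p = 4.4e-05). POLR2B, the second largest subunit, had an estimate of -0.068 (-0.20 to 0.063).

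POLR2M encodes Gdown1, a polymerase-associated protein that competes with the initiation factor TFIIF. It lies on chromosome 15 (57706629 to 57782762) and had 36.2, 42.2 and 46.2 CPM in the controls against 17.5, 35.6 and 32.3 CPM in the knockdowns. Every knockdown library lay below every control library, with knockdown replicate 1 the lowest. The log2 fold change was -0.58 ± 0.136 (SE) (edgeR blocked adjusted p = 0.025), and adjusted p = 0.90 without the block. POLR2M passed in 11 of the 11 fits and in 0 of the 13 others. Among those 13, leaving out replicate 1 of a single group gave edgeR adjusted p = 0.74 and 0.69. By pair the log2 difference was -1.05, -0.24 and -0.51, so its size differed over 1.5-fold between pairs. GCOM1, a same-strand gene that shares 21.1% of its exon bases, had 146, 56 and 63 counts in controls and 142, 67 and 58 in knockdowns. TCEA1 (TFIIS), which rescues backtracked polymerase, had 479, 319 and 305 CPM in the controls against 368, 293 and 289 CPM in the knockdowns. Its estimate was -0.20 (-0.36 to -0.035, edgeR adjusted p = 0.10), and it passed in 3 of the 11 fits. It had the highest FPKM of the members (82.9 in controls), and 4 pseudogenes named after it had 94 to 192 counts in all per library, beside at least 4210 for TCEA1.

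**Figure D3:**
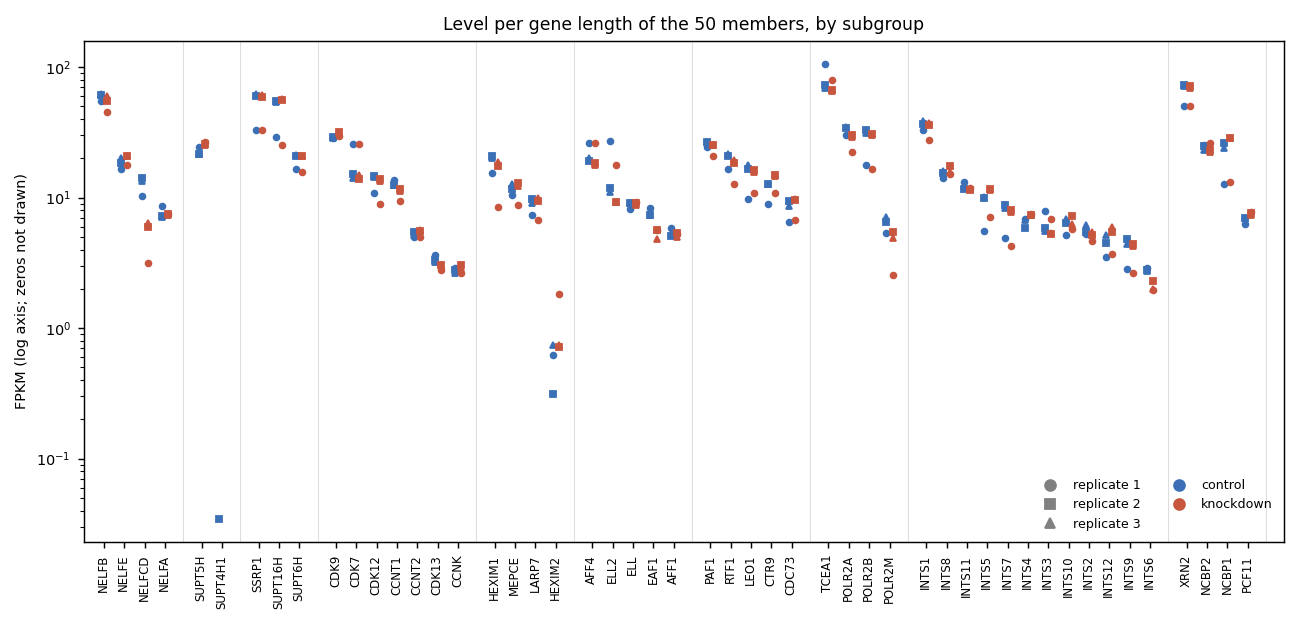
FPKM (log axis) of all 50 members in each library, by subgroup and ordered by control mean within it; blue is control, red is knockdown and symbols give the replicate, with values of 0 not drawn. Most members lie between 2.78 (CCNK) and 82.9 (TCEA1) in controls, and HEXIM2 and SUPT4H1 lie below that range.

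Integrator is a large complex whose endonuclease INTS11 cuts nascent RNA at snRNA genes and at paused polymerase, and whose phosphatase arm, held by INTS6 and INTS8, removes tail phosphates. Of 12 subunits 1 fell and 0 rose in blocked edgeR (background 8.01% lower and 5.48% higher). The median was -0.069 (-0.023 with upper-quartile scaling). INTS6 (chromosome 13, 51354077 to 51454264) had 75.6, 71.2 and 70.0 CPM in the controls against 52.0, 58.4 and 50.7 CPM in the knockdowns. The groups did not overlap, and 74.3% of the control mean was left. The log2 fold change was -0.43 ± 0.0739 (SE) in edgeR's blocked fit (adjusted p = 0.0087) and adjusted p = 0.59 without the block. It passed in 11 of the 11 fits and in 0 of the 13 others. Among those 13, leaving out replicate 1 of a single group gave edgeR adjusted p = 0.69 and 0.63. INTS8, the other subunit of that arm, lay at 0.10 (-0.046 to 0.25).

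The cleavage module did not pass in the blocked fit of all 6 libraries. INTS11 lay at -0.065 (-0.20 to 0.074), its partner INTS9 at -0.073 (-0.29 to 0.14) and INTS4, which holds them, at 0.20 (0.020 to 0.38, edgeR adjusted p = 0.13). INTS4 had 42.6, 35.6 and 41.0 CPM in the controls against 47.0, 44.8 and 44.7 CPM in the knockdowns. Its groups did not overlap, and it passed in 2 of the 11 fits, both without replicate 1 of both groups (0.22 in each, edgeR adjusted p = 0.030 and 0.017). INTS5 had 18.5, 32.6 and 33.3 CPM in the controls against 24.1, 38.5 and 38.0 CPM in the knockdowns. It was higher in all 3 pairs (0.27, 0.073 to 0.46, edgeR adjusted p = 0.073), and passed in 3 of the 11 fits. The scaffold subunit INTS1, the most abundant per gene length (36.2 FPKM in controls), lay at -0.093 (-0.24 to 0.053). INTS2, INTS3 and INTS7 lay between -0.13 and -0.12, and INTS10 and INTS12 at 0.098 and 0.21, with intervals that included 0. Across the complex 7 subunits were lower and 3 higher in all 3 pairs, where 26.9% and 25.8% of all genes were. With upper-quartile scaling these became 4 and 4, beside 21.5% and 31.8% of all genes.

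Of the termination and cap-binding genes 0 of 4 passed in blocked edgeR (background 13.5%), with 2 at an unadjusted p under 0.05 (background 30.5%). Blocked DESeq2 and limma-voom called 0. PCF11, a termination factor that binds the polymerase tail, had 63.2, 68.7 and 68.8 CPM in the controls against 80.6, 76.4 and 73.2 CPM in the knockdowns. The groups did not overlap, at 115% of the control mean (0.20, 0.031 to 0.36, edgeR adjusted p = 0.11). NCBP1, the large cap-binding subunit, had 71.4, 144 and 132 CPM in the controls against 75.6, 159 and 159 CPM in the knockdowns. Replicate 1 lay far below replicates 2 and 3 in both groups, and the knockdown was higher in each pair (0.17, 0.020 to 0.31, edgeR adjusted p = 0.12), which passed in 3 of the 11 fits. The cap-contacting subunit NCBP2 was at -0.022 (-0.16 to 0.12). XRN2, the exonuclease that follows cleavage, was at -0.0070 (-0.14 to 0.12).

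**Figure D4:**
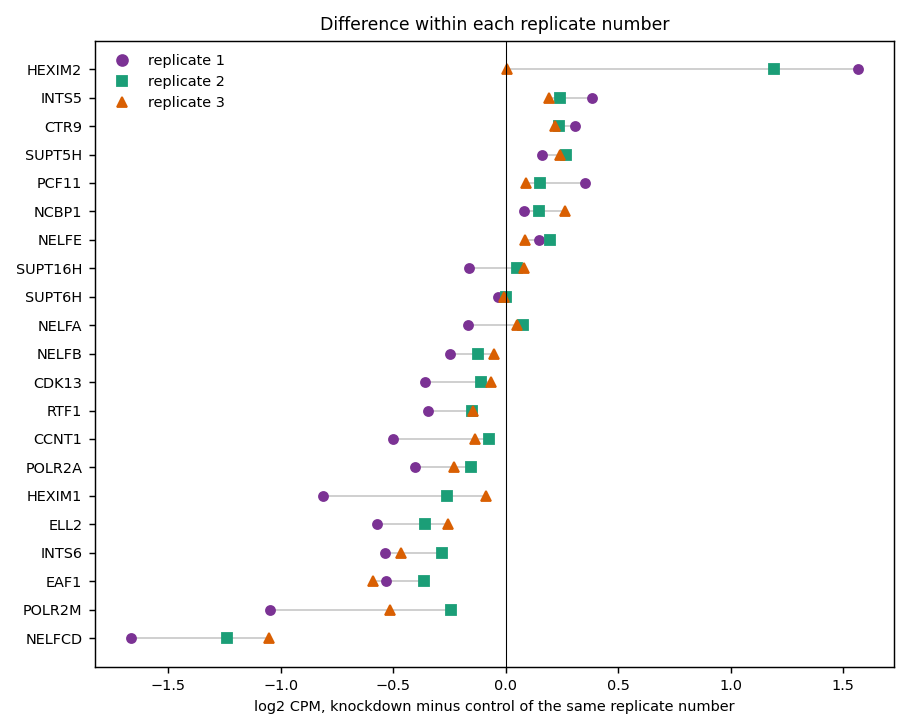
Log2 CPM of the knockdown minus the control of the same replicate number (x axis) for the 4 NELF subunits, the members that passed and up to 2 members per subgroup with the largest estimates. Symbols give the replicate; most of these genes have their lowest point in replicate 1, and HEXIM2 spans 0.0066 to 1.57.

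Beyond the members, a list of 72 further genes of the same pathways was examined, of which 71 were tested. With the block 4 rose and 4 fell (edgeR, background 13.5%), and the median was -0.027. Without the block 0 passed (background 0%), with 1 at an unadjusted p under 0.05 (background 6.43%). Of the 10 Integrator and Integrator-associated genes on the list 3 rose and 1 fell (background 5.48% and 8.01%). INTS6L, the paralog of INTS6, had 15.9, 10.7 and 10.5 CPM in the controls against 22.1, 14.1 and 15.8 CPM in the knockdowns. It rose by 0.49 on the log2 scale (edgeR blocked adjusted p = 0.021), beside the fall of INTS6. INTS13 had 46.6, 77.6 and 79.2 CPM in the controls against 80.4, 101 and 99.9 CPM in the knockdowns. It rose by 0.49 as well (edgeR adjusted p = 0.012). NABP1 and INIP form a single-strand DNA-binding complex with INTS3. NABP1 had 74.3, 79.5 and 76.5 CPM in the controls against 116, 113 and 110.2 CPM in the knockdowns. It rose by 0.56 (edgeR adjusted p = 0.0016). INIP had 49.8, 61.9 and 61.7 CPM in the controls against 26.8, 47.1 and 45.2 CPM in the knockdowns. It fell by 0.57 (edgeR adjusted p = 0.0095). The groups of NABP1, INTS13 and INIP did not overlap, whereas those of INTS6L did. Over the 71 tested genes of the list the groups did not overlap in 4 higher and 2 lower genes (background 7.52% and 7.38%).

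The largest change on that list was AFF3, a further AFF-family scaffold, with 61.5, 22.2 and 20.9 CPM in the controls against 28.1, 12.2 and 12.9 CPM in the knockdowns. It fell by 0.92 on the log2 scale in edgeR's blocked fit (adjusted p = 0.0018), with replicate 1 the high library in each group and overlapping groups. PHF3, which binds the polymerase tail, fell by 0.32 and PHAX, the export adaptor for snRNA, fell by 0.34. The small polymerase subunit POLR2L rose by 0.43, and the remaining genes of the 10 further polymerase subunits did not pass. In the list of 26 cleavage, polyadenylation and phosphatase genes PHF3 was the single call, and 0 of 13 other elongation factors passed in blocked edgeR (background 13.5%). Of those 13, 4 had an unadjusted p under 0.05 (background 30.5%).

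Replicate 1 differed from the other libraries of its group in many members. In replicate 1, 29 of 49 members lay lower and 13 higher than replicates 2 and 3 in both groups, where 40.1% and 43.1% of all genes did. Over 2-fold, ELL2 was the 1 member higher in both groups (background 9.23%) and 0 were lower (background 4.92%). Medians of that difference were -0.13 on the log2 scale in controls and -0.22 in knockdowns, beside 0.028 in each group for all genes. SUPT16H, NCBP1 and SSRP1 were lower there by 0.87, 0.95 and 0.85 in controls. ELL2 and CDK7 were higher, by 1.28 and 0.85. NELFCD, HEXIM1 and POLR2M were lower in replicate 1 of the knockdown by 0.91, 1.02 and 0.96 and of the control by 0.39, 0.38 and 0.29. These 3 genes, like most of those plotted by pair, had their lowest knockdown difference in pair 1, and NELFCD was left at 31.5%, 42.4% and 48.2% of the control in pairs 1 to 3. Whether the depth of the knockdown moved with the size of the other changes was not tested.

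**Figure D5:**
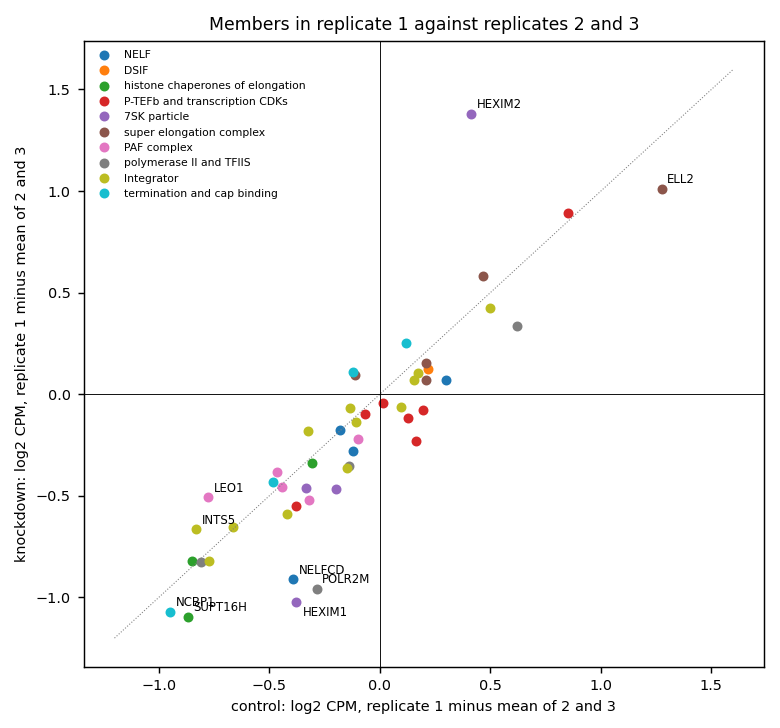
Log2 CPM of replicate 1 minus the mean of replicates 2 and 3, in controls (x axis) and knockdowns (y axis), for the 49 tested members coloured by subgroup. Points lie along the dotted line of equality, from NCBP1 and SUPT16H at the lower left to ELL2 at the upper right, and HEXIM2, HEXIM1, POLR2M and NELFCD lie off it.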

How the data were processed

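Bulk RNA-seq libraries of Mum-2b cells were prepared with a SMARTER mRNA kit, per the labels' protocols, and were grouped as 3 control and 3 knockdown samples by their titles. Raw counts per gene were deposited by the authors, aligned to hg38 per the submitters' processing notes, and the aligner, counter and strand setting are not given in the sources used here. FPKM values were deposited by the authors beside the counts, and each equals the count divided by gene length and by 1 constant per library. For the members that length equals all annotated exon bases of the gene, not the length of an expressed mRNA. Levels and shares of FPKM compared between genes, paralogs included, depend on it. CPM was computed from the deposited counts and the library sizes of the filtered genes, scaled by TMM factors.

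Genes were kept with edgeR's filterByExpr and tested by the quasi-likelihood test (edgeR 4.0.16, R 4.3.3) with TMM scaling and Benjamini-Hochberg adjustment over all 14844 genes at 0.05. The planned fit had no replicate term, and a second fit added the replicate number (the block). Same-numbered control and knockdown libraries deviated together from their group means (correlations 0.838, 0.629 and 0.616), so the numbers were taken to pair the samples. This comes from the data, not the labels, and rests on replicate 1: the replicate 2 minus 3 difference had a correlation of -0.0046 between groups. The block fit has 2 residual degrees of freedom. DESeq2 1.42.0, limma 3.58.1, other scalings, filters and left-out libraries were tried, and the scripts were tested on simulated data. NELFCD was also tested with an exact permutation test (scipy 1.17.1).

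Members, lists and the rule for named genes were chosen with earlier results of these data known. Any member may be named, and values by library are given mainly for NELF, called members and the largest estimates per subgroup. CDK9, TCEA1 and INTS4 were added after their values were seen.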

Additional observations from a re-analysis of the deposited data

How the results depend on the processing

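Without a replicate term, 0 members and 0 genes passed in edgeR under every scaling, filter and left-out library tried, and in limma-voom. DESeq2 called 1 member and 161 genes, and replicates 2 and 3 alone gave 15 members and 3758 genes. With the replicate block, which pairs libraries of equal number, 8 members and 2002 genes passed. The blocked counts were 8 and 2040 with relative log expression scaling, 10 and 2184 with upper-quartile scaling (NCBP1 and INTS5 added), 12 and 2888 with no low-count filter, 8 and 1807 with a mean of at least 5 CPM, 6 and 1358 in DESeq2, and 8 and 2130 in limma-voom. Leaving out a pair gave 16 and 4090 without replicate 1 of both groups, 4 and 932 without replicate 2, and 7 and 1760 without replicate 3. The cause of these differences was not tested.

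Some estimates changed sign with the setting. NELFA, SUPT16H and SUPT6H, which lay near 0, passed in none of the fits run. NELFA was 0.026 with upper-quartile scaling, 0.062 in replicates 2 and 3 alone, and with the replicate block 0.032 with upper-quartile scaling, 1.5e-05 with a mean of at least 5 CPM and 0.061 without replicate 1. SUPT16H was -0.011 in limma-voom and with the replicate block -0.0096, -0.019 with relative log expression scaling, -0.025 with no filter, -0.020 in DESeq2, -0.0049 in limma-voom, -0.043 without replicate 2 and -0.061 without replicate 3. SUPT6H was 0.033 with upper-quartile scaling and 0.0020 with a mean of at least 5 CPM, and with the block 0.034 and 0.0015. Leaving out single libraries without the block gave -0.87 to 0.11 for ELL2, -0.075 to 0.45 for NCBP1, -0.073 to 0.083 for NELFA, -0.22 to 0.30 for SUPT16H and -0.11 to 0.088 for SUPT6H. Each of those fits has unlike replicate numbers in the groups, so replicate differences and the knockdown cannot be told apart in it. With 3 libraries per group, 2 residual degrees of freedom were left under the block. Small changes could not be resolved for genes of few counts such as HEXIM2.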
